A study of Saccharomyces cerevisiae with 16 samples.

Results

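Cycloheximide was compared with its solvent in starved wild-type cells of the budding yeast Saccharomyces cerevisiae, over all 11997 features of the deposited table that are not spike-ins. These features are 5899 protein-coding genes, 1664 XUTs, 847 SUTs, 925 CUTs, 1526 NUTs, tRNAs, snoRNAs and smaller classes. The comparison takes 4 of the 16 libraries of a strand-specific total RNA sequencing series, 2 with the drug and 2 without. All 4 come from strain YAM1 (MATa his3Δ1 leu2Δ0 met15Δ0 ura3Δ0), grown in complete synthetic medium (CSM) with glucose and moved for 16 min to CSM with glycerol and ethanol, which is called starvation here. The cells then received cycloheximide at 100 µg/ml or an equal volume of DMSO, and the labels give no exposure time. The same strain kept in glucose, with and without the drug, supplies the values given for glucose. Strains without Upf1 or Xrn1 are described only where they are named. Their libraries also enter the fit, which takes its estimate of the spread from all 16.

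Cycloheximide binds the large ribosomal subunit and blocks elongation, so ribosomes stay on the mRNAs they were translating. Loss of glucose acts earlier: within minutes yeast stops most initiation, and ribosomes run off many mRNAs. Decapping followed by Xrn1 is the main route of mRNA decay, and Upf1 acts in nonsense-mediated decay, which needs a translating ribosome. XUTs are long noncoding RNAs (lncRNAs) defined by their accumulation without Xrn1, CUTs are cryptic transcripts that the nuclear exosome removes, SUTs are unannotated transcripts of greater stability, and NUTs appear when Nrd1-dependent termination fails. In the nucleus, glucose loss also relieves repression of genes for other carbon sources and lowers synthesis of ribosomal components.

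Values are reads per nucleotide of a feature. Spike-in RNAs summed to 305 to 317 in every library, so levels are set against spike-in added at a constant dose for each µg of total RNA, which is mostly rRNA, and not per cell. In bulk RNA, fewer cells expressing a gene and less RNA per cell cannot be told apart. Steps between low values gave 15.6 M and 13.9 M reads (M, mega) on open reading frames in the starved mock libraries, and 8.77 M and 7.04 M in the starved drug libraries. Between replicates, the median SD of a protein-coding gene on the log2 scale was 0.0756 in the mock pair and 0.112 in the drug pair. In the table's column names the 4 drug libraries, starved or not, share one prefix and the other 12 libraries share another, so drug and prefix cannot be told apart. Transcripts specific to mating type a summed to 8.22 to 134 across the libraries, and those specific to alpha cells summed to 0.111 to 0.782. Of the 4 marker genes in the genotype, MET17, the current symbol of MET15, was listed at 0. LEU2 reached at most 0.00147 and URA3 at most 0.00715. HIS3, by contrast, lay at 0.257 to 2.17, and the reason was not tested.

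Most mRNAs were more abundant with the drug, whereas most mRNAs for cytosolic ribosomal proteins, ribosome biogenesis and translation elongation and termination were less abundant. Over the protein-coding genes the median level was 0.184 and 0.175 reads per nucleotide in the mock libraries and 0.477 and 0.436 in the drug libraries. Of 5817 protein-coding genes tested, 4671 rose (80.3%) and 591 fell (10.2%) in a limma fit with Benjamini-Hochberg adjustment and a threshold of 0.05, with a median log2 change of 1.31. Over all 11599 features tested, 7632 rose (65.8%) and 965 fell (8.32%). These shares are the background for each count below. At least 2-fold rises were found for 3672 protein-coding genes, at least 2-fold falls for 175, and at least 8-fold rises for 106. In 4828 protein-coding genes both drug libraries lay above both mock libraries, and in 696 both lay below. Scaling the libraries to their protein-coding genes took the median change of all features from 1.03 to -0.02 and left 2481 protein-coding genes higher and 2075 lower, so a rise as deposited includes a shift common to most mRNAs.

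**Figure D1:**
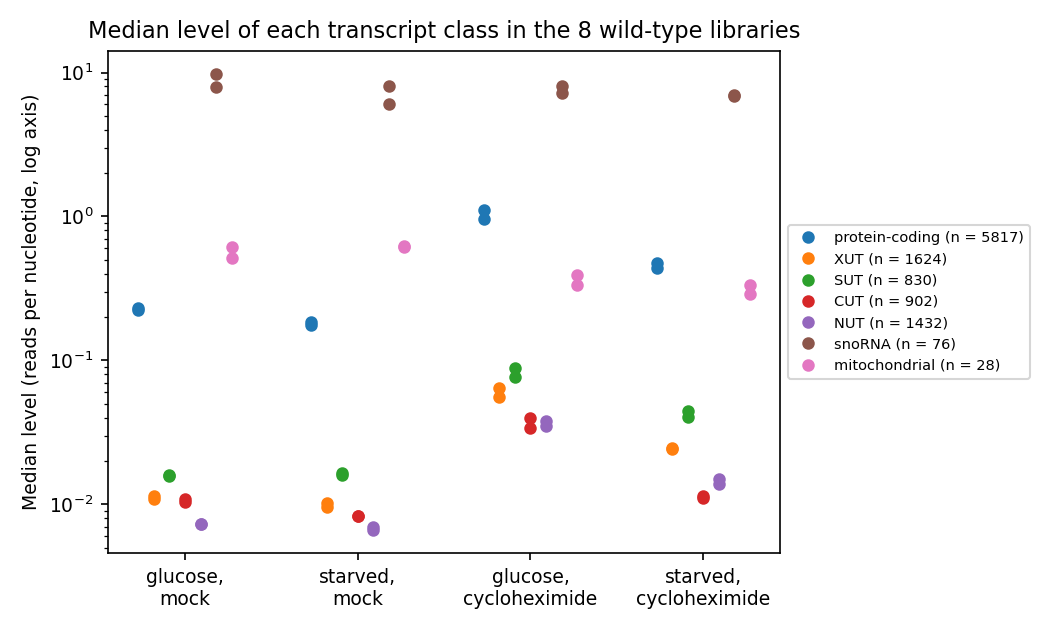
Median level of each transcript class (reads per nucleotide, log axis) in each of the 8 wild-type libraries, 1 point per library. Medians of protein-coding genes, XUTs, SUTs, NUTs and, by less, CUTs were higher in both starved drug libraries than in both starved mock libraries. Those of mitochondrially encoded features were lower.

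Promoter sequence is shown first for 3 of the 12 coding genes with the largest rises (OYE3, OSI1 and ECM4) and 3 of the 8 with the largest falls (YEF3, KAP123 and URA7), chosen because a short element recurs in these windows. The sequences are from the RefSeq assembly R64, the build named in the submitters' processing notes, read 5′ to 3′ on the strand of the gene from 300 to 101 bases before the start codon. Capitals mark every match, on either strand, to the 6 motifs searched: the Yap1 site TTACTAA, the PAC element GATGAG, the stress response element CCCCT, the Rpn4 site GTGGCAA, the Gcn4 site TGACTC and TATAAA. The Yap1 site was added after the genes were known. OYE3 is on the minus strand at chrXVI:227472-227671, OSI1 on the plus strand at chrXI:304814-305013, ECM4 on the plus strand at chrXI:581983-582182, YEF3 on the plus strand at chrXII:636480-636679, KAP123 on the minus strand at chrV:382204-382403 and URA7 on the minus strand at chrII:145829-146028.
OYE3: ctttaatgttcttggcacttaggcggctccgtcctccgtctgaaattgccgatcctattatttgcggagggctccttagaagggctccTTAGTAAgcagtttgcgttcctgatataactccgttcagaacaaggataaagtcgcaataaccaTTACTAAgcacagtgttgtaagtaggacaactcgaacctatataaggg
OSI1: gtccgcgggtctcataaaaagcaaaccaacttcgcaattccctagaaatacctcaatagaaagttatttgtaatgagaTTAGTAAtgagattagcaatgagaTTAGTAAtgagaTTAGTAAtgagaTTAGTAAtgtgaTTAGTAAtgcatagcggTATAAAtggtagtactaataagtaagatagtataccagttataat
ECM4: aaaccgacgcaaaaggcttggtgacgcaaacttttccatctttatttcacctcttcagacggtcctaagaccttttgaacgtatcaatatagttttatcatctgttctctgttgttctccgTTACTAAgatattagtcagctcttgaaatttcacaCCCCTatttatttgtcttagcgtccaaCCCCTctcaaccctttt
YEF3: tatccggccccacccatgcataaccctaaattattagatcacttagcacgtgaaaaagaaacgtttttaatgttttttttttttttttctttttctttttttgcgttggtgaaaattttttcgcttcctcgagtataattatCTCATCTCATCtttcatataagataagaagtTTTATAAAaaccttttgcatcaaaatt
KAP123: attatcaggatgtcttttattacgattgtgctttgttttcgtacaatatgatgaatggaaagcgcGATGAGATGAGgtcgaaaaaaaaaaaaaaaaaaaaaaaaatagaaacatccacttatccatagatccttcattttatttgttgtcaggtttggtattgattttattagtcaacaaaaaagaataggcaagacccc
URA7: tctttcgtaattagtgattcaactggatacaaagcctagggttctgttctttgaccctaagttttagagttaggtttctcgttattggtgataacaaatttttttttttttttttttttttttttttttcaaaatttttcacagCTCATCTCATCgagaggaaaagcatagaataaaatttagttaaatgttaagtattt

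The OSI1 stretch holds 5 matches to the Yap1 site, OYE3 holds 2 and ECM4 holds 1. Yap1 is the transcription factor of the oxidative stress response in yeast. In the 500 bases before the start codon, 4 of the 12 genes with the largest rises held this site, against 11.9% of the promoters of all tested protein-coding genes. Because this site was added to the search after these genes were known, these shares are a description and no test. The YEF3, KAP123 and URA7 stretches each hold 2 overlapping PAC matches, an element common upstream of ribosome biogenesis genes. Of the 8 genes with the largest falls, 6 held PAC within 500 bases, against 27.9% of all promoters. A match is a run of letters, and binding was not measured.

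OYE3 (YPL171C, chromosome XVI, 226169 to 227371), an NADPH oxidoreductase of the old yellow enzyme family, had the largest rise. It lay at 0.0526 and 0.0357 reads per nucleotide in the starved mock libraries and at 8.12 and 7.50 in the starved drug libraries, a 177-fold ratio of means and a change of 7.37 ± 0.21 (log2 ± SE, with a limma adjusted p = 1.49e-10). In glucose the drug libraries stood at only 0.0411 and 0.0395, against 0.0179 and 0.0113 without the drug. The difference between the drug's effects in starvation and in glucose, tested as an interaction in the same fit, was 6.08 ± 0.29 (limma adjusted p = 7.15e-09). High OYE3 was thus seen in both libraries that had been starved and treated, and in none of the other 6 wild-type libraries.

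OSI1 (YKL071W, chromosome XI), named for its induction by oxidative stress, went from 0.0249 and 0.0199 to 0.815 and 0.741, a log2 change of 4.91 ± 0.21 (limma adjusted p = 2.4e-09). ECM4 (YKR076W, chromosome XI), an omega-class glutathione transferase, went from 0.252 and 0.202 to 6.92 and 6.14 (4.83 ± 0.16, limma adjusted p = 6.6e-10). AAD4 (YDL243C, chromosome IV), a putative aryl-alcohol dehydrogenase, went from 0.0657 and 0.0624 to 1.97 and 1.99 (4.87 ± 0.12, limma adjusted p = 1e-10). The drug and mock libraries of these genes do not overlap, which the rule that picked them requires, and the change was larger than in glucose, by 2.49, 2.57 and 1.79 on the log2 scale in the interaction (limma adjusted p = 1.48e-05, 1.3e-06 and 1.6e-06). YML131W, a putative oxidoreductase, showed the same order, with 0.718 and 0.587 in the mock libraries and 12.5 and 11.7 with the drug. Of the 23 oxidative stress genes on the list used here, 22 rose and none fell, at a median log2 change of 1.56 against 1.31 for all protein-coding genes. The list median in glucose was 1.54, and the interaction was positive for 3 genes and negative for 6 (median -0.08). Scaled to protein-coding genes, 15 were higher and 6 lower, with a median of 0.31. The peroxisomal catalase CTA1 rose by 3.19 ± 0.20, while the peroxidase GPX2 had a change of 0.25 ± 0.11 that missed the threshold (limma adjusted p = 0.0565).

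Other genes among the 12 largest rises act in the use of fatty acids and ethanol. FAT3 (YKL187C), needed for fatty acid uptake, stood at 0.0431 and 0.0346 without the drug and at 1.69 and 1.53 with it, a log2 change of 5.25 ± 0.18 (limma adjusted p = 7.24e-10). CAT2 (YML042W), the carnitine acetyltransferase, went from 0.163 and 0.137 to 3.24 and 2.75. ADH2 (YMR303C), the alcohol dehydrogenase that oxidises ethanol, went from 0.237 and 0.181 to 3.58 and 3.62. Both lay far higher with the drug, at log2 changes of 4.29 ± 0.15 for CAT2 and 4.09 ± 0.15 for ADH2 (limma adjusted p = 9.86e-10 and 9.33e-10).

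RGI2 (YIL057C), which acts in respiratory growth, was near or at 0 in glucose, with or without the drug. It lay at 0 and 0.00569 in glucose, at 0.00661 and 0.00852 in glucose with the drug, at 0.365 and 0.276 in starvation and at 5.73 and 5.74 in starvation with the drug. Its drug effect in starvation was 4.16 ± 0.40 (limma adjusted p = 6.74e-07), and larger than in glucose by 3.23 ± 0.57 (limma adjusted p = 0.000386). Because its glucose values are near the pseudocount, this difference was 1.78 and did not pass with a pseudocount 10 times smaller. GAP1, the general amino acid permease, rose from 0.181 and 0.176 to 3.28 and 2.81, and LEE1, a zinc finger protein, from 0.0495 and 0.0475 to 1.10 and 0.880. YHR022C, a protein of unknown function, went the other way in the interaction. It rose by 4.14 ± 0.20 in starvation, to 0.538 and 0.359, but by 6.20 in glucose, to 2.51 and 2.13, a difference of -2.05 ± 0.29 (limma adjusted p = 6.85e-05).

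**Figure D2:**
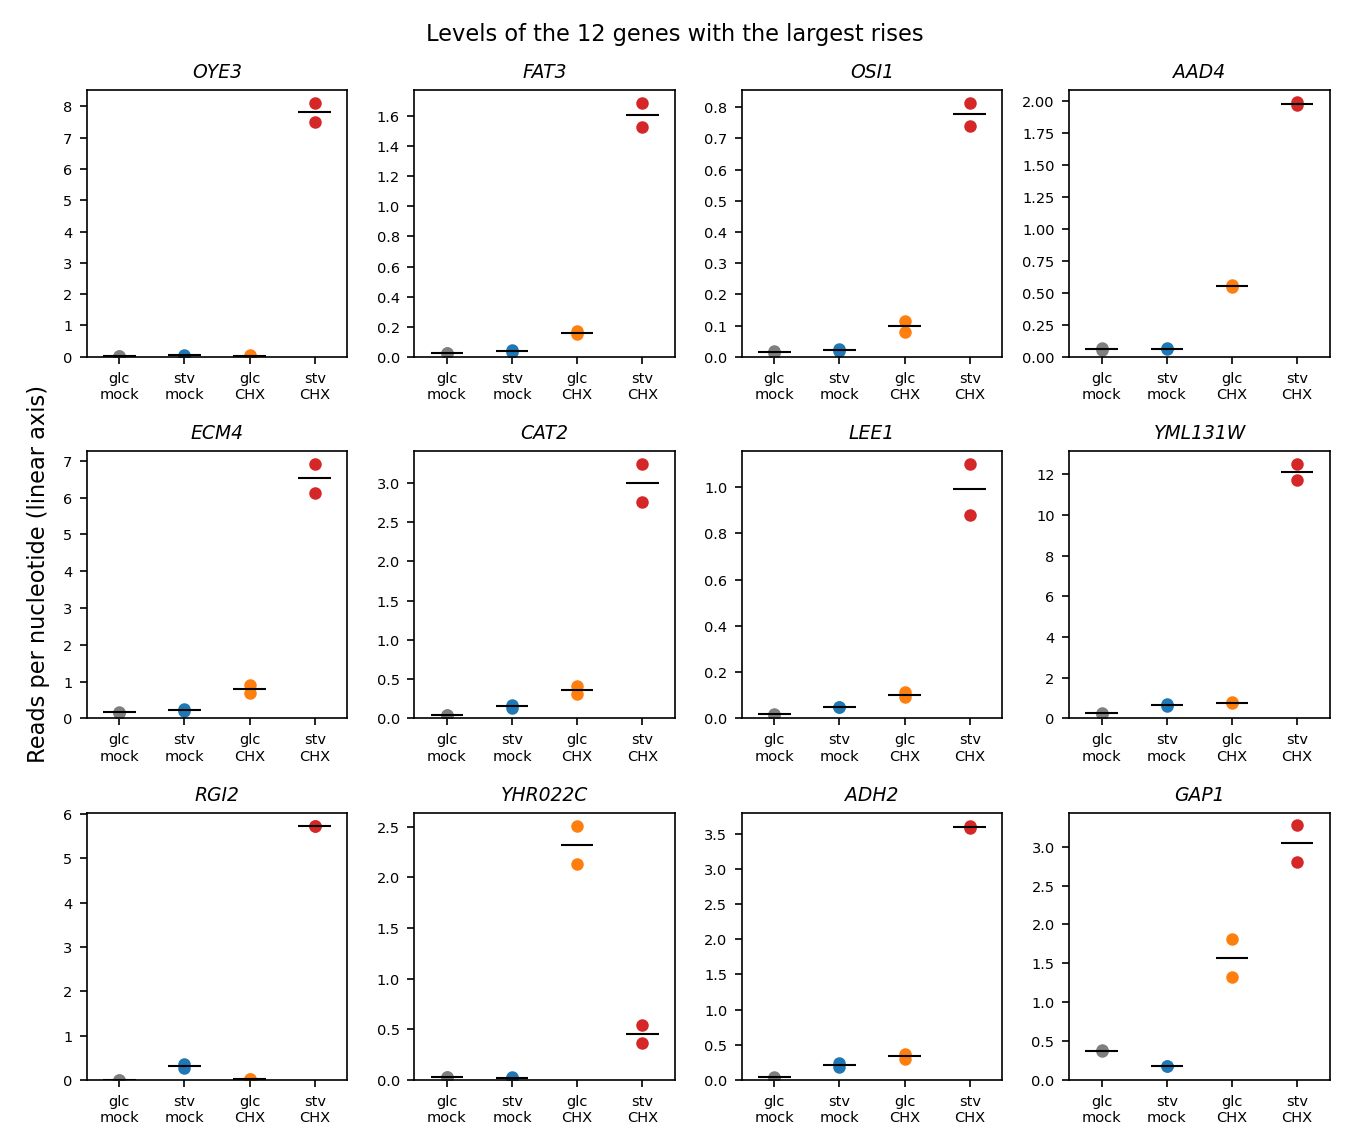
Reads per nucleotide (linear axes from 0) of the 12 protein-coding genes with the largest rises, in glucose (glc) and starvation (stv), without (mock) and with cycloheximide (CHX), with 1 point per library and a line at the mean of 2. In 11 of the 12 genes the starved drug libraries were the highest, and YHR022C was higher with the drug in glucose.

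The genes that glucose represses mostly rose as groups. Of 23 genes of gluconeogenesis, the glyoxylate cycle and ethanol use, 22 rose and none fell, and the median log2 change was 2.51. The exception was ATO3, an ammonium and acetate transporter family member, at -0.19 ± 0.09 (limma adjusted p = 0.0704), and the activator gene ADR1 rose by 1.07 ± 0.12. All 23 genes of glucose-repressed sugar use rose, with a median of 2.04, from GAL80, the repressor of the galactose genes, at 0.65 to MAL33, a maltose activator, at 3.25. Of 22 trehalose and glycogen genes, 21 rose, with a median of 2.06. ATH1, the acid trehalase, went from 0.243 and 0.193 to 1.88 and 1.68, and PGM1, the minor phosphoglucomutase, fell by 0.30.

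Respiration showed a split between genomes. All 39 nuclear genes of the respiratory chain and ATP synthase rose, with a median of 1.85, from CYC1, cytochrome c isoform 1, at 0.79 to NDE2, an NADH dehydrogenase, at 3.74. Of 18 TCA cycle genes 17 rose, with a median of 1.83. CIT3, a mitochondrial citrate synthase, went from 0.187 and 0.139 to 1.95 and 1.84. All 77 mitochondrial ribosomal protein genes rose, with a median of 1.63. Of 28 mitochondrially encoded features, by contrast, none rose and 25 fell, with a median of -0.93. Their summed level was 74.6 and 75.2 without the drug and 54.7 and 67.4 with it, with the drug pair further apart than the mock pair. In glucose 2 of these features rose with the drug and 12 fell, with a median of -0.20. The fall in starvation was also the direction with the libraries scaled to protein-coding genes (-2.13) and to snoRNAs (-0.71).

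Several of the mRNAs that fell most encode factors that work on the ribosome. YEF3 (YLR249W, chromosome XII, 636780 to 639914), the fungal elongation factor 3, stood at 17.6 and 18.0 in the starved mock libraries and at 3.90 and 4.27 in the drug libraries, so the mock mean was 4.35 times the drug mean. The log2 change was -2.12 ± 0.08 (limma adjusted p = 1.47e-09). In glucose the same gene went the other way, from 32.3 and 33.6 to 53.2 and 49.9. SSB2, an Hsp70 that binds the nascent chain at the ribosome, went from 9.42 and 9.65 to 2.48 and 2.70, and its near-identical paralogue SSB1 from 11.4 and 11.7 to 3.10 and 3.33. TEF1, which encodes elongation factor 1 alpha together with its twin TEF2, fell by 1.47 ± 0.07. Drug and mock libraries of these abundant mRNAs did not overlap, which the rule that picked YEF3 and SSB2 requires. The replicates of each mRNA lay close together. How reads shared by such paralogues were counted is not given in the sources used here, so single members of duplicated pairs are uncertain.

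Of 57 small-subunit ribosomal protein genes, 52 fell and 1 rose (median log2 change -0.85). Of 81 large-subunit genes, 77 fell and 2 rose, with a median of -0.88. Members of these lists lay between ASC1, a ribosomal scaffold protein, at 17.6 and 18.3 without and 5.24 and 5.80 with the drug (-1.70 ± 0.08), and RPL22B, at 0.304 and 0.321 without and 0.938 and 0.697 with it (1.36 ± 0.11, limma adjusted p = 1.74e-07). The 3 genes that rose, RPL22B, RPL15B (0.87) and RPS27A (0.33), are each 1 of a duplicated pair, but so are members that fell, such as RPL1B and RPL2B. Under scaling to protein-coding genes no member of either list was higher and 57 and 80 were lower, and under scaling to snoRNAs the medians were -0.63 and -0.67.

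Of 127 ribosome biogenesis genes, 101 fell and 8 rose, with a median of -0.77. DBP2, an RNA helicase, went from 0.514 and 0.545 to 0.179 and 0.161, and NSR1, the yeast nucleolin, from 0.628 and 0.677 to 0.261 and 0.185. MAK11, an assembly factor of the large subunit, rose by 1.47 ± 0.12. Of the promoters of this list, 88.2% held PAC within 500 bases before the start codon, against 22.5% for the cytosolic ribosomal proteins and 27.9% for all genes. The RNA polymerase I and III subunits, 90.0% of which held PAC, counted 10 that fell and 3 that rose of 20, including RPA135 and RPA190, the 2 largest subunits of polymerase I, at -1.41 and -1.39. RRN3, the initiation factor of polymerase I, rose by 1.64 ± 0.13.

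The translation factors were divided. Of 13 elongation and termination factors 8 fell and 3 rose, with a median of -1.12. Of 29 initiation factors 10 fell and 9 rose, with a median of -0.12 that turned to 0.10 with the libraries scaled to snoRNAs. TIF1, one of the paired genes for eIF4A, fell by 1.41 and PAB1, the poly(A)-binding protein, by 0.81, whereas EAP1, which binds eIF4E and restrains initiation, rose by 1.82 and TIF4632, an eIF4G, by 1.48. Of the 4 ubiquitin genes, the fusions with ribosomal proteins RPL40A, RPL40B and RPS31 fell by 0.68, 0.78 and 0.71, and UBI4, the stress-induced polyubiquitin gene, rose from 2.59 and 2.44 to 8.77 and 8.45.

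The other large falls touched the cell cycle, nucleotide synthesis and import. HO (YDL227C, chromosome IV), the mating-type endonuclease made in a short window of G1, had the largest fall of a named coding gene, from 0.486 and 0.480 to 0.0746 and 0.0725 (-2.65 ± 0.13, limma adjusted p = 5.88e-09). RNR1 (YER070W), the large subunit of ribonucleotide reductase, fell from 1.25 and 1.27 to 0.278 and 0.265. IMD4, an IMP dehydrogenase in GTP synthesis, fell from 1.72 and 1.75 to 0.420 and 0.409, and URA7, the main CTP synthase, from 0.716 and 0.713 to 0.205 and 0.183. These genes were picked for falls with groups that do not overlap, and in glucose all 4 were higher with the drug than without it. KAP123, an importin for ribosomal proteins, fell by 1.88 ± 0.09, and TOS6, a cell wall protein, by 2.09 ± 0.09. Of 28 cyclins and cell cycle regulators, 21 rose and 5 fell, with a median of 1.11 that turned to -0.13 under scaling to protein-coding genes. All 11 histone genes rose, with a median of 1.77 and HHF1, a histone H4 gene, going from 4.28 and 4.10 to 19.5 and 17.2.

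**Figure D3:**
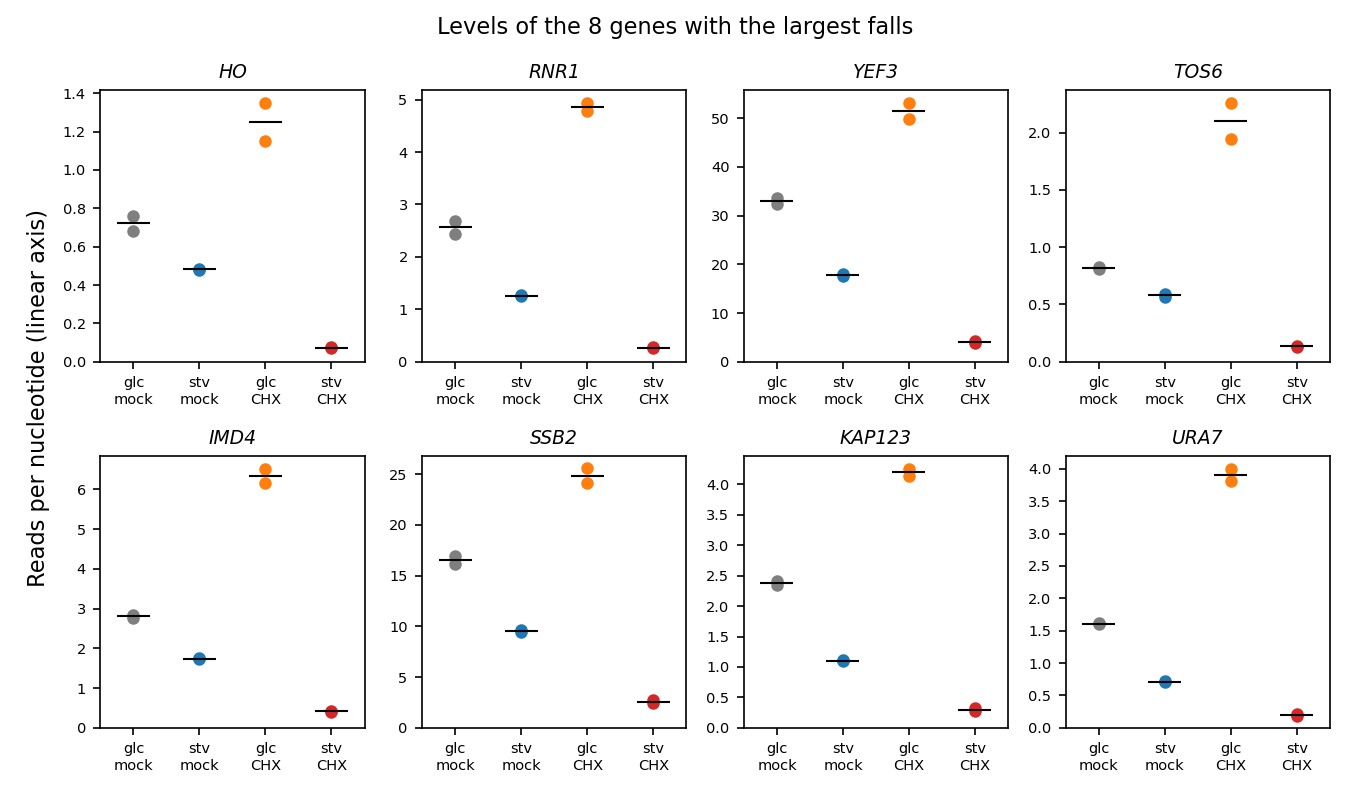
Reads per nucleotide (linear axes from 0) of the 8 protein-coding genes with the largest falls, in glucose (glc) and starvation (stv), without (mock) and with cycloheximide (CHX), with 1 point per library and a line at the mean of 2. In each gene the starved drug libraries were the lowest and the glucose drug libraries the highest.

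Ranked by level, the change was smallest among the most abundant mRNAs. With protein-coding genes ranked by their mean over all 16 libraries, the lowest decile had a median log2 change of 1.27, the third 1.57 and the highest 0.05, where 265 genes rose and 247 fell. By coding length the medians of 5 equal bins lay between 1.20 and 1.39. Of the 591 genes that fell, 230 were on the ribosomal protein or ribosome biogenesis lists.

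Glycolysis held both directions. Of 23 genes of glycolysis and fermentation 12 fell and 8 rose, with a median of -0.23. PDC1, the main pyruvate decarboxylase, went from 87.2 and 89.6 to 33.0 and 33.3, and ENO2, an enolase, from 77.4 and 79.6 to 30.2 and 35.0. HXK1, the hexokinase derepressed without glucose, rose from 10.4 and 8.99 to 54.7 and 49.3, and PYK2, the pyruvate kinase used at low flux, rose by 1.94. Of 14 hexose transporter genes 11 rose and 2 fell, with a median of 1.63. The low-affinity carriers HXT1 and HXT3 fell by 0.76 and 0.26, and HXT13 rose from 0.00118 and 0.00343 to 0.0598 and 0.0307. Of 17 genes for glucose repressors and the Snf1 pathway 16 rose, among them the repressor NRG1, from 0.374 and 0.290 to 3.49 and 3.13, while MIG3 was at 0.11 ± 0.15 (limma adjusted p = 0.539).

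Stress and protein quality genes also differed within lists. Of 22 stress transcription factors 20 rose and none fell, with a median of 1.80. ROX1, the repressor of hypoxic genes, rose by 3.33 and the post-diauxic factor USV1 by 3.24, and TYE7, an activator of glycolytic genes, had a change of -0.00 ± 0.14 (limma adjusted p = 0.984). Of 32 chaperone genes 14 rose and 9 fell, with a median of 0.24 that became -1.01 under scaling to protein-coding genes. All 34 proteasome genes rose, with a median of 1.02, but that is under the median of all protein-coding genes, and scaled to those genes it was -0.23, with 3 higher and 20 lower. Of the proteasome promoters 94.1% held the Rpn4 site, against 7.7% of all promoters. Of 27 genes for stalled ribosomes and ribosome quality control 21 rose and 4 fell, with a median of 1.11 that became -0.12 under that scaling. CUE2, the endonuclease that cuts mRNA at collided ribosomes, rose from 0.0595 and 0.0627 to 0.236 and 0.260.

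Drug efflux is a textbook response to toxic compounds in yeast. Of its 12 genes on the list 11 rose, against 80.3% of all protein-coding genes, with a median of 1.72. Scaled to protein-coding genes that median became 0.48, with 8 higher and 3 lower. SNQ2, an ABC transporter, went from 0.512 and 0.476 to 5.03 and 4.98, and YRR1, a regulator of efflux genes, rose by 2.95. PDR5, the transporter best known for exporting cycloheximide, stood at 1.02 and 1.01 without and at 0.936 and 0.949 with the drug (-0.11 ± 0.11, limma adjusted p = 0.400). In glucose PDR5 rose by 1.80, and the difference between both effects was -1.90 (limma adjusted p = 6.9e-07).

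Nitrogen and amino acid genes moved apart. Of 28 genes under nitrogen catabolite repression or encoding permeases 26 rose, with a median of 1.73, including PUT1, the proline oxidase, from 0.278 and 0.245 to 3.19 and 2.81. Of 66 amino acid biosynthesis genes 28 rose and 24 fell, with a median of -0.10 that turned to 0.12 under scaling to snoRNAs and to 0.02 without drug replicate 2. BAT2, the cytosolic branched-chain aminotransferase, rose by 3.60 ± 0.14 and LEU9, a leucine synthesis enzyme, fell by 1.56 ± 0.08. The Gcn4 site was found in 63.6% of these promoters, against 12.9% of all.

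The purine and pyrimidine list had 12 that rose and 5 that fell of 21, with a median of 0.35 that became -0.90 under scaling to protein-coding genes. Sterol and fatty acid synthesis had 7 that rose and 13 that fell of 27, with a median of -0.20 that became 0.02 under scaling to snoRNAs, and ERG3, a sterol desaturase, fell by 1.72. The cell wall list had 10 that rose and 3 that fell of 16 (0.59, and -0.66 scaled to protein-coding genes), with FKS1, the glucan synthase, at -1.44. The phosphate regulon had 17 that rose and 2 that fell of 20 (0.88, and -0.36 so scaled), with the inhibitor gene SPL2 at 3.19 and the acid phosphatase PHO3 at -1.53. Mating type a and pheromone genes had 21 of 22 that rose (1.05, and -0.18 so scaled). All 5 genes of mating type alpha, which these cells barely express, rose too, with a median of 1.66. In iron, copper and zinc, 20 of 23 rose, with a median of 1.72, and in autophagy 18 of 20, with a median of 1.95. Of 21 meiosis and sporulation genes 19 rose, with a median of 1.79. SPO24, a small protein of sporulation, went from 9.50 and 8.71 to 71.6 and 71.2.

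**Figure D4:**
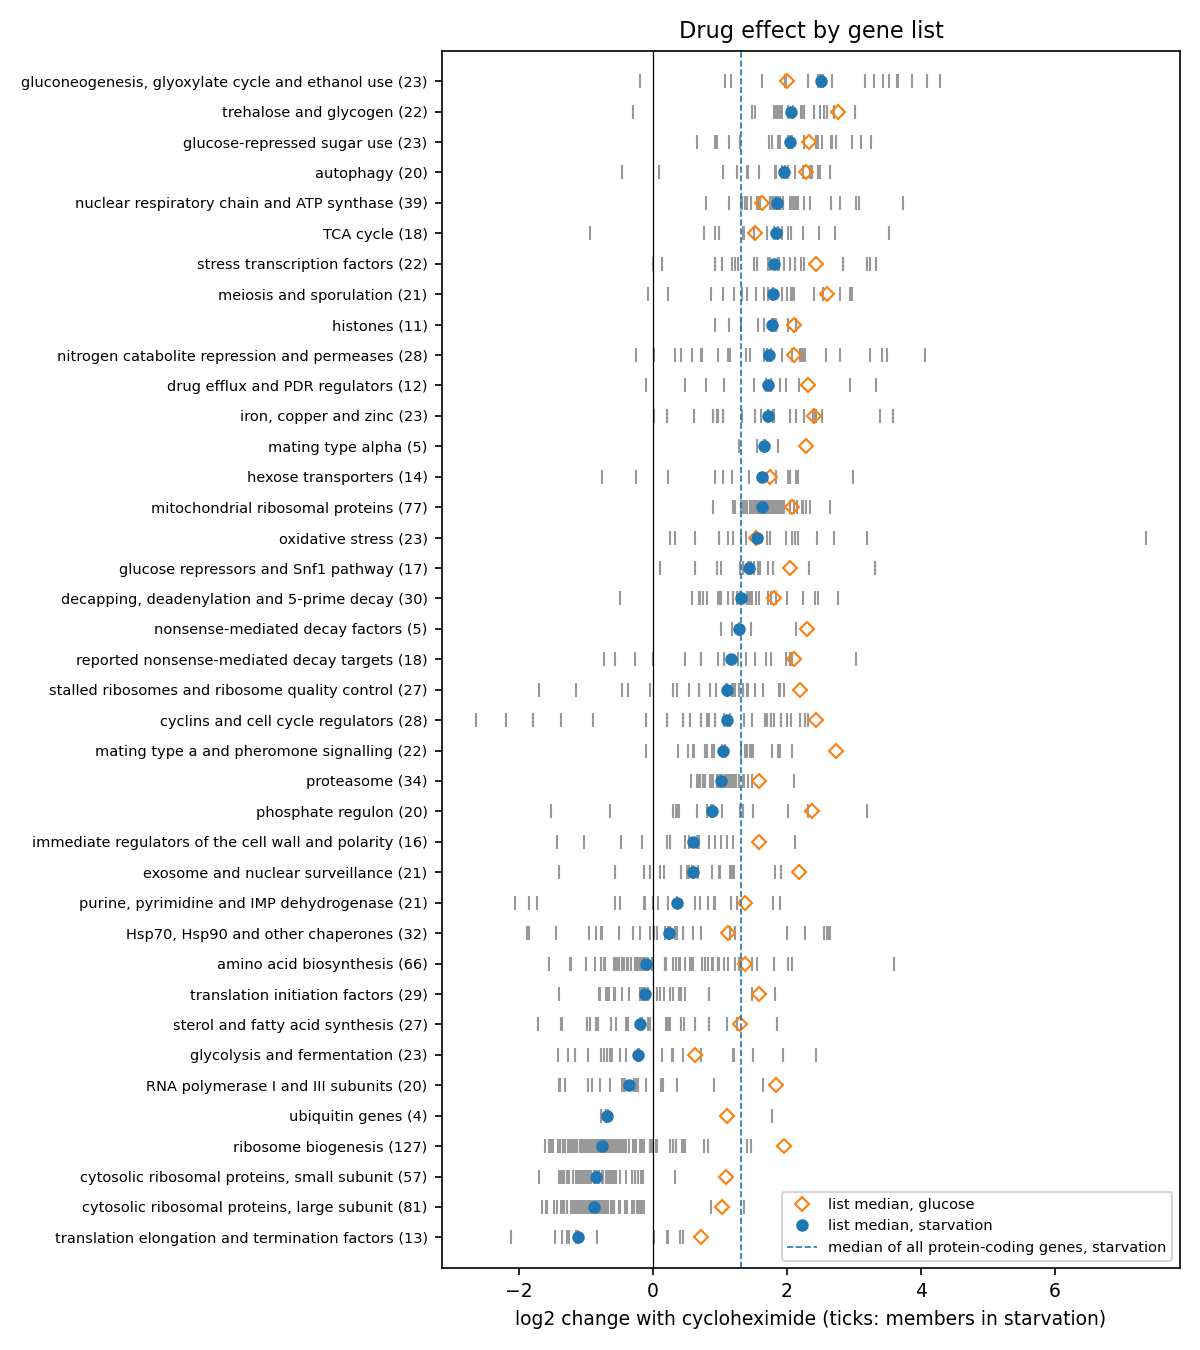
Log2 change with cycloheximide for 39 gene lists, with the number of genes tested in brackets. Grey ticks are the members in starvation, filled circles the list medians in starvation, open diamonds the list medians in glucose, and the dashed line the median of all protein-coding genes in starvation (1.31). The translation lists at the bottom have medians below 0 in starvation and above 0 in glucose.

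Among the RNA decay genes, the 5 nonsense-mediated decay factors all rose, with a median of 1.28, and of 30 genes of decapping, deadenylation and 5′ decay 29 rose, with a median of 1.31. Both medians are close to that of all protein-coding genes, and scaled to those genes both became 0.07. Under that scaling 14 of the 30 decay genes were higher and 9 lower. EDC1, an enhancer of decapping, rose by 2.77 and RAT1, the nuclear 5′-3′ exonuclease, fell by 0.49. Of 21 exosome and nuclear surveillance genes 15 rose and 2 fell, with a median of 0.59 that became -0.64 under scaling to protein-coding genes. MTR4, the helicase of the nuclear exosome, fell from 0.261 and 0.265 to 0.0965 and 0.0969. Of 18 reported targets of nonsense-mediated decay 14 rose and 3 fell. Their median of 1.16 became -0.06 under that scaling and is below the 1.31 of all protein-coding genes.

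The noncoding families rose to different extents. Of 1624 XUTs tested 1008 rose (62.1%) and 55 fell (median log2 change 1.01), and of 830 SUTs 618 rose (74.5%) and 24 fell, with a median of 1.19. Of 1432 NUTs 789 rose (55.1%) and 55 fell, with a median of 0.71 that became -0.11 under scaling to protein-coding genes. CUTs changed least: 233 of 902 rose (25.8%) and 97 fell (10.8%), with a median of 0.18 that became -0.68 under that scaling. Their levels are low, and the pseudocount of 0.00369, worth 11.1 and 10.1 reads per kb in the mock libraries but 3.93 and 3.41 in the drug libraries, pulls such medians towards 0. With a pseudocount 10 times larger the medians were 0.35 for XUTs, 0.54 for SUTs, 0.19 for NUTs and 0.05 for CUTs, and with one 10 times smaller they were 1.28, 1.37, 1.01 and 0.24. snoRNAs had 6 that rose and 28 that fell of 76 (median -0.27), and tRNAs 15 and 42 of 270 (-0.31).

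Features that accumulate in mutants in glucose can be read out here in libraries the mutant comparisons did not use. Both calls take a feature's spread from the same fit, so a small spread favours passing in both and the calls are not independent. Of 833 XUTs that passed at least 2-fold higher without Upf1, 648 rose with the drug (77.8%), with a median of 1.31. The other 791 XUTs did not pass or were under 2-fold. Of these 360 rose with the drug (45.5%), with a median of 0.67. With a pseudocount 10 times larger these medians were 0.54 and 0.22. Among CUTs the shares were 58.7% of 109 and 21.3% of 793. Median starved mock levels were 0.0109 and 0.00902 for the XUT sets and 0.00965 and 0.00824 for the CUT sets. The part of level was not tested. Of 486 protein-coding genes that passed at least 2-fold higher without Upf1, 454 rose (93.4%) and none fell, with a median of 1.78. Of the other 5331 genes 4217 rose (79.1%) and 591 fell, with a median of 1.26. Median mock levels in starvation were 0.0652 for the 486 and 0.196 for the 5331, and the part of level was not tested. Without Xrn1, 5240 protein-coding genes passed with a rise of at least 2-fold, and of these 4489 rose with the drug (85.7%). Of the other 577, 182 rose with the drug (31.5%) and 253 fell, with a median of -0.15. These 577 include genes that passed with a smaller rise without Xrn1, such as ASC1 at 0.50 (log2). Median mock levels in starvation were 0.865 for the 577 and 0.169 for the 5240, so level moves with this split, and its part in the result was not tested.

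The lncRNAs named here were picked for large changes with groups that do not overlap. XUT0977 stood at 0.0521 and 0.0653 without and at 1.05 and 0.990 with the drug (4.04 ± 0.26, limma adjusted p = 2.75e-08), and XUT0172 at 0.0194 and 0.0160 against 0.292 and 0.261. SUT220 went from 0.101 and 0.0907 to 1.30 and 1.07, with no call in glucose (0.36, limma adjusted p = 0.128) and an interaction of 3.21 ± 0.31 (limma adjusted p = 2.55e-06). CUT757 went from 0.0248 and 0.0268 to 0.309 and 0.285. CUT287 went the other way, from 0.0848 and 0.0616 to 0.00531 and 0.00612 (-3.02 ± 0.20, limma adjusted p = 2.62e-08). The lncRNAs come without coordinates, so reads that a neighbouring gene shares with them could not be taken out. Among named NUTs, NUT0676 kept a nearly fixed ratio to the gene ZPS1 (log2 SD 0.0234), NUT1140 to XBP1 (0.0530) and NUT1169 to snR37 (0.000176), and no separate value is read from these 3.

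The last comparison asked whether the drug acted alike in starvation and in glucose. The interaction also equals the starvation effect among drug libraries minus that among mock libraries, each taken within one column prefix. The effect was smaller in starvation for most genes: 4112 of 5817 protein-coding genes (70.7%) had a negative interaction and 149 (2.56%) a positive one, with a median of -0.80. Over all features 7075 (61.0%) were negative and 239 (2.06%) positive. In glucose the drug raised 5746 of these genes and lowered 3, at a median of 2.05. Across the 5817 genes the changes in both media, which share no library, had a Pearson r of 0.583 and a Spearman rho of 0.608, as a description across genes that share libraries and depth. Scaled to protein-coding genes the median interaction of these genes was -0.02, with the calls over all features then at 1960 positive and 2782 negative.

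Translation genes stood at the negative end. All 127 ribosome biogenesis genes, all 57 small-subunit and all 81 large-subunit ribosomal protein genes had a negative interaction, with medians of -2.66, -2.0 and -1.98. The most negative coding gene was PCL1 (YNL289W), a G1 cyclin of the kinase Pho85. It stood at 0.585 and 0.627 in glucose and at 5.21 and 4.69 with the drug, but at 0.274 and 0.284 in starvation and at 0.125 and 0.0888 with the drug, an interaction of -4.39 ± 0.22 (limma adjusted p = 7.24e-09). GFD2 had an order of the same kind, with 1.52 and 1.35 in the glucose drug libraries and 0.0326 and 0.0318 in the starved ones. In contrast, gluconeogenesis and ethanol use had 10 positive and 4 negative interactions of 23, and the nuclear respiratory chain 6 positive and none negative of 39. Related lists were not uniform. The TCA cycle had 6 positive and 4 negative of 18 (median 0.26), and glucose-repressed sugar use 5 and 6 of 23 (-0.25). Trehalose and glycogen had 1 positive and 15 negative of 22 (-0.73).

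**Figure D5:**
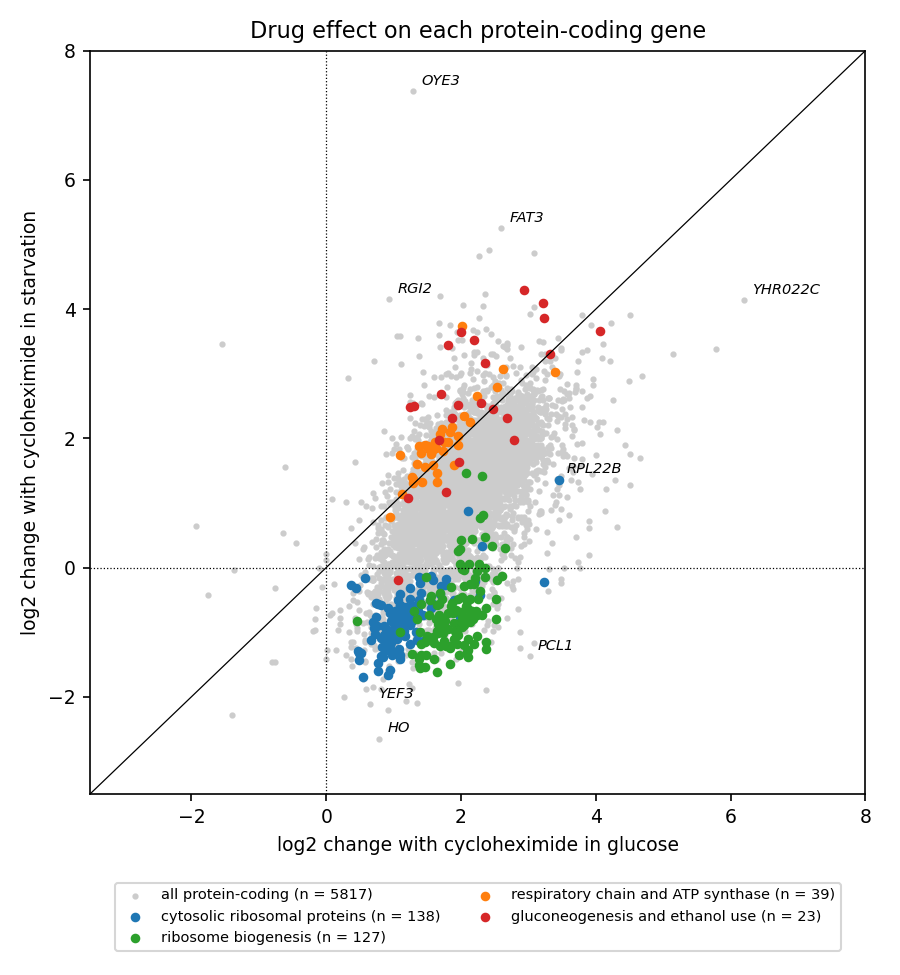
Log2 change with cycloheximide in starvation (vertical) against that in glucose (horizontal) for 5817 protein-coding genes, 1 point each, with 4 gene groups coloured and 8 genes labelled. The solid line marks equal changes and the dotted lines mark 0. Ribosomal protein and ribosome biogenesis genes lie to the right of 0 and mostly below it. Respiratory genes and most gluconeogenesis genes lie near or above the line of equal change.

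Starvation itself, which shares its libraries with the main comparison, is given only side by side. The 3084 protein-coding genes that fell on glucose loss had a median starvation change of -0.72 and a median drug change in starvation of 0.88, with 2155 that rose with the drug and 559 that fell. The 625 that rose on glucose loss had medians of 0.89 and 2.03, with 595 that rose with the drug and 7 that fell.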

How the data were processed

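Of 16 RNA libraries in 8 groups of 2, which the series' design text calls biological replicates, 4 were compared here, with the 4 wild-type glucose libraries beside them. Per the labels' protocols, RNA was extracted with hot phenol, a fixed amount of ERCC spike-in was added to 1 µg of total RNA, rRNA was removed with Ribominus and libraries kept strand. The submitters' processing notes name DESeq2, featureCounts 2.0.0, HISAT2 2.2.0, Trim Galore and build R64, with no role for any. The deposited values are a coverage signal, reads per nucleotide, already normalized by the authors in a way the labels do not state; spike-in sums of 305 to 317 and spike-in factors of 1 were measured. The 8 columns of group means were not used.

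Depth was recovered from the steps of low values on 5623 single-exon ORFs; 75.2 to 88.7% of low values were whole within 0.05 reads, so no count test was run. log2(value + 0.00369), the 5th percentile of positive values, was fitted with limma 3.58.1 in R 4.3.3 (trend, 1 mean per group, all 16 libraries, 8 residual degrees of freedom) for 11599 features with a mean at or above the pseudocount; 398 were left out. P-values were Benjamini-Hochberg adjusted over all of them, and changes are ± SE. They measure the spread between 2 libraries per group; an exact permutation of 2 against 2 cannot go below 0.333. The interaction is the drug effect in starvation minus that in glucose. The fit was tested on simulated data.

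The members, the 39 gene lists (1130 of 1134 symbols matched), the tests and the rules were chosen with earlier results of these data known, so lists are described by counts and medians, with no test. Named features were the 12 largest rises and 8 largest falls among coding genes, and 4 and 3 per lncRNA family, all of which passed, had groups that did not overlap and reached 0.0500 reads per nucleotide in the higher group. Also named were the 5 coding genes and 3 lncRNAs most extreme each way in the interaction among those that passed it, and the 2 highest and 2 lowest of each list, passing or not. Replicate numbers did not pair the libraries (correlation of replicate differences 0.0124).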

Additional observations from a re-analysis of the deposited data

Results flagged for a closer look

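The features below had drug effects that differed between starvation and glucose, tested as an interaction in the limma fit, and are the largest in each direction by the naming rule. Among protein-coding genes the differences (log2, starvation minus glucose) were 6.08 for OYE3, 5.0 for YLR154C-H, 3.23 for RGI2, 2.65 for FAT3 and 2.60 for HBN1, a nitroreductase family gene that stood at 0.150 and 0.123 in starvation and at 1.15 and 0.976 with the drug. YLR154C-H, a short ORF beside the ribosomal DNA, was near the detection limit, at 0.00253 and 0 without and at 0.0213 and 0.107 with the drug. In the other direction the differences were -4.39 for PCL1, -4.27 for YMR230W-A, -4.25 for YMR141C, -4.13 for YGR079W and -3.88 for GFD2. YGR079W went from 0.331 and 0.344 to 2.67 and 2.34 with the drug in glucose, and from 0.0533 and 0.0538 to 0.0224 and 0.0184 in starvation.

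Among lncRNAs the differences were 3.21 for SUT220, 3.05 for CUT876 and 2.73 for SUT454, and -4.87 for CUT480, -4.84 for XUT0182 and -4.65 for XUT0116. CUT480 stood at 0.392 and 0.374 with the drug in glucose and at 0.00374 and 0.00500 with it in starvation. XUT0182 and XUT0116 were listed at 0 in both starved drug libraries. Without the drug in starvation they were also low, at 0.00593 and 0.00646 for XUT0182 and 0.00140 and 0.00152 for XUT0116. The drug change in starvation did not pass for CUT480 (-0.32, limma adjusted p = 0.0893) or XUT0116 (-0.48, limma adjusted p = 0.199). CUT876 was at 0.00487 and 0 without and 0.0343 and 0.0198 with the drug in starvation.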

How the results depend on the processing

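Counts over all features depended on the scaling. As deposited, 7632 features were higher and 965 lower with the drug in starvation. Scaled to protein-coding genes the counts were 3588 and 3656, and scaled to snoRNAs 634 were lower. In the interaction (239 higher, 7075 lower) they were 1960 and 2782 under the former scaling, and 133 were higher under the latter. A 2-fold minimum left 340 lower in the main comparison and 119 higher and 4615 lower in the interaction. Leaving out each wild-type library in turn gave 7171 to 7674 higher, 805 to 985 lower, 189 to 303 interaction higher and 5963 to 7300 interaction lower. The replicate block gave 7678 and 982, and 285 and 7364 in the interaction; the numbers did not pair the libraries (correlation 0.0124). Pseudocount, filter, trend and the libraries fitted kept these counts within 1.5 times. Scaled to protein-coding genes, medians changed sign for CUTs (-0.68), NUTs (-0.11) and the lists for ribosome quality control (-0.12), chaperones (-1.01), the proteasome (-0.23), nonsense-mediated decay targets (-0.06), the exosome (-0.64), the cell cycle (-0.13), mating type a (-0.18), phosphate (-0.36), cell wall (-0.66) and nucleotides (-0.90). Scaled to snoRNAs they did for initiation factors (0.10), amino acids (0.12) and sterols (0.02), and amino acids also without 1 starved drug replicate (range over replicates -0.16 to 0.02). Of 1417 values of named features, 1382 kept their direction and side of the threshold, 31 no longer passed and 4 newly passed; the 31 include CUT876, XUT0182 and YMR141C, whose starved levels lie near the pseudocount. The cause was not tested. The starved drug libraries held 7.04 M to 8.77 M reads, which limits low lncRNAs.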

Other observations

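Further genes stood at the ends of their lists in drug change in starvation. FIT2, a cell wall mannoprotein that retains iron, went from 0.181 and 0.143 to 2.32 and 1.66 (3.58 ± 0.19, limma adjusted p = 8.17e-09), and its interaction with glucose was 2.49. DMC1, the meiotic recombinase, went from 0.0347 and 0.0258 to 0.281 and 0.235 in these haploid cells. CDC6, a replication licensing factor, went from 0.0269 and 0.0326 to 0.201 and 0.131. PHO84, the high-affinity phosphate transporter, went from 0.578 and 0.644 down to 0.406 and 0.374, whereas in glucose it rose by 2.84, an interaction of -3.48 (limma adjusted p = 2.78e-08). NRG2, a repressor paralogous to NRG1, rose by 0.62 in starvation and by 4.32 in glucose, an interaction of -3.70. The copper metallothionein copies CUP1-1 and CUP1-2, identical genes whose reads cannot be assigned to one copy, had changes of 0.02 ± 0.43 and 0.21 ± 0.43 (limma adjusted p = 0.964 and 0.682). ATG41, an autophagy gene, fell by 0.46, while ATG39, the receptor for autophagy of the nucleus, rose by 2.65.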
